A study of Mus musculus with 93 samples.

Results

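Smooth muscle and contractile cytoskeleton genes were followed in the first and second heart field progenitors of the mouse. The set holds 10 genes, listed by name with earlier results of these data known, of the 24514 gene symbols in the deposited count table: Acta2, Actg2, Actb, Tagln, Cnn1, Cnn2, Myl9, Myh9, Tpm2 and Tpm4. All 10 were found in the table.

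Each library was made from 10 sorted cells and sequenced after polyA-primed amplification, and its deposited values are read counts per gene. The cells came from mice carrying Hcn4-GFP, Tbx1-Cre and the Ai9 reporter, or from spheroids of an embryonic stem cell line derived from such mice. GFP+ cells express the Hcn4 reporter of the first heart field, and RFP+ cells are those in which Tbx1-Cre has at some time switched on the Ai9 reporter, so RFP marks a lineage and not current Tbx1 expression. The groups were 5 GFP+ and 4 RFP+ libraries in vivo, and 38 GFP+ and 46 RFP+ libraries in vitro from spheroids at day 5.5.

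All 4 groups carried the same 3 alleles, and none was a wild-type control. The sample titles give embryonic day 8.5 for the embryos, and the protocol gives E7.75. The spheroids were induced with Activin A, Bmp4 or Wnt proteins alone or in combination, and the labels do not say which combination the sequenced cells received. The in vitro cells all derive from 1 reporter line. No label ties a well to an embryo or a differentiation, so n counts wells, and p-values measure the spread between wells, which may be technical.

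Smooth muscle contracts when the myosin light chain is phosphorylated and myosin pulls on filaments of smooth muscle actin, to which calponin, transgelin and tropomyosin bind. Most cells run a similar machine with cytoplasmic actin and non-muscle myosin. Several smooth muscle genes, Acta2 and Tagln among them, are also switched on for a time in the first cardiomyocytes of the embryonic heart, and many are targets of serum response factor (SRF) and its cofactor myocardin.

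The actins of the set are Acta2 (alpha smooth muscle actin, chr19:34241090-34255590, minus strand), Actg2 (gamma smooth muscle actin, chr6:83512905-83536265, minus strand) and Actb (beta cytoplasmic actin, chr5:142903115-142906754, minus strand). The actin-binding proteins are Tagln (transgelin, also called SM22, chr9:45929619-45936058, minus strand), Cnn1 (calponin of differentiated smooth muscle, chr9:22099216-22109630, plus strand) and Cnn2 (a calponin of wider expression, chr10:79988584-79996062, plus strand). The myosin genes are Myl9 (a regulatory light chain, chr2:156775420-156781658, plus strand) and Myh9 (the heavy chain of non-muscle myosin IIA, chr15:77760587-77842175, minus strand). The tropomyosins, which lie along the actin filament, are Tpm2 (chr4:43514711-43523765, minus strand) and Tpm4 (chr8:72134975-72153142, plus strand). Coordinates are those of GRCm38 in GENCODE M21, and Tagln and Cnn1 share a chromosome without being neighbours.

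SRF binds the CArG box, a short motif of C bases, a run of A and T, and G bases. RefSeq promoter windows on GRCm38.p6 were matched for 7 of the 10 genes, and the 250 bases before the start site were searched on both strands for the CArG box and for the same motif with 1 inner G or C. The Cnn2 and Myl9 windows each held 1 CArG box, which 1.48% of 32536 mouse promoter windows held. The Acta2 window held 2 motifs with 1 inner G or C and the Myl9 window 1, a form found in 7.23% of windows. Neither form was found in the windows of Cnn1, Myh9, Tpm2 and Tpm4. Of the 250 bases searched, 106 for Tpm2, 41 for Tpm4 and 37 for Cnn1 lie inside exons of the same gene in GENCODE. A stretch is shown for every window that held a match, whatever the tests gave, with the matches in capitals. Acta2, Cnn2 and Myl9 differed between populations in vivo, and so did Cnn1, whose window held no match. A match is a description of the letters and not evidence of binding.
Acta2, chr19:34255438-34255467, minus strand, with 1 of its 2 matches: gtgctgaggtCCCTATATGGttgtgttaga
Cnn2, chr10:79988350-79988583, plus strand: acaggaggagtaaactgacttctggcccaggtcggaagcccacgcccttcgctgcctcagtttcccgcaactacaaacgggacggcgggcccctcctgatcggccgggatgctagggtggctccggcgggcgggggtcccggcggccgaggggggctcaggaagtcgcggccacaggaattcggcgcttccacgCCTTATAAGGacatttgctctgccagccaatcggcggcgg
Myl9, chr2:156775214-156775419, plus strand, with both matches: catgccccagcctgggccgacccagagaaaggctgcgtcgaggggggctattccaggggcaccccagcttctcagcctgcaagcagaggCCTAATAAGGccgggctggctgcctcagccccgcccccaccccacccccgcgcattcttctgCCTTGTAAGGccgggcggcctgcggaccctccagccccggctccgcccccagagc
The match shown for Acta2 starts 84 bases before the RefSeq start site, and its 30 bases lie inside an exon of Acta2 itself in GENCODE, where the gene starts farther upstream. The Cnn2 match starts 56 bases before the start site, and the Myl9 matches start 161 and 99 bases before it.

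Between 712732 and 2525460 reads were counted per library in vivo. In vitro the totals ran from 445071 to 5658882, apart from 1 GFP+ library (well C9) with 6288 reads and 3082 detected genes. GFP+ libraries detected 6189 to 8302 genes in vivo and RFP+ libraries 10263 to 13052. Hcn4 averaged 14.9 ± 16.7 counts per 1000000 (CPM; SD, n = 5) in GFP+ cells in vivo and was counted in 1 of the 4 RFP+ libraries, at 1.44 CPM. Tbx1 was at 0 in all 5 GFP+ libraries and was counted in 3 of the 4 RFP+ libraries, at up to 8.64 CPM. A count of 0 allows a level of up to 1.19 to 4.21 CPM in the GFP+ and 2.03 to 2.41 CPM in the RFP+ libraries in vivo (3 reads, counting error only). In vitro, RFP+ cells were in plate columns 1 to 6 and GFP+ cells in columns 7 to 11, so plate position cannot be told apart from population. In 7 pairs of in vitro RFP+ wells of columns 3 and 4, the 2 profiles correlated at r = 0.959 to 0.990, against a highest value of 0.946 among the other RFP+ pairs. Such wells may not be separate samples, and summing each pair changed no call on the 10 genes.

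Levels are CPM, counts scaled to a library of 1000000 reads, with trimmed mean of M-values (TMM) scaling over all 93 libraries. With counts on genes of different length, genes were compared with each other only as CPM per kilobase of exon. On that scale Actb was the highest of the 10 genes in RFP+ cells in vivo and in both in vitro groups, with 3552, 2565 and 2950 CPM per kilobase for RFP+ in vivo, GFP+ in vitro and RFP+ in vitro. In GFP+ cells in vivo, Acta2 stood above Actb, with 2799 against 2289 CPM per kilobase. Myl9 followed there with 869 and Tpm4 with 514 CPM per kilobase. In vitro the smooth muscle actin was far below the cytoplasmic one, with 24.5 CPM per kilobase of Acta2 in GFP+ and 4.83 in RFP+ cells.

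**Figure D1:**
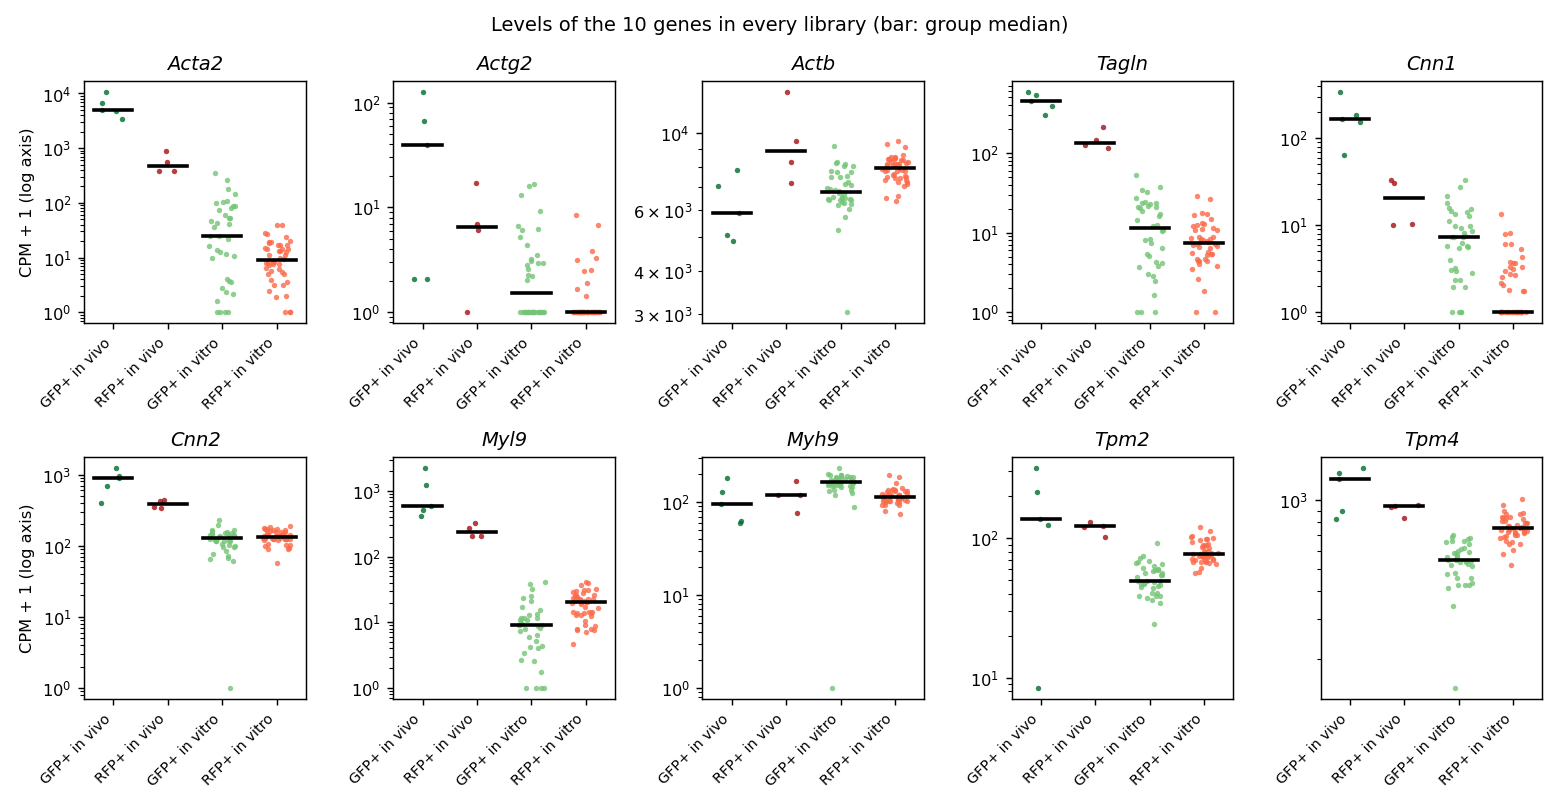
CPM + 1 on a log axis for the 10 genes in each of the 93 libraries, 1 point per library, grouped as GFP+ in vivo (n = 5), RFP+ in vivo (n = 4), GFP+ in vitro (n = 38) and RFP+ in vitro (n = 46), with a bar at the group median. Acta2, Tagln and Myl9 separate all in vivo libraries from all in vitro libraries, whereas Actb spans 3032 CPM (the shallow well C9) to 13157 CPM over all groups.

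The first comparison asked how the heart field populations of the embryo differ in these genes. In vivo, Acta2, Tagln, Cnn1, Cnn2 and Myl9 were lower in RFP+ than in GFP+ cells, by 2.20-fold for Cnn2 to 11.5-fold for Acta2, and Actb was higher, by less than any of these. Actg2, Myh9, Tpm2 and Tpm4 did not pass the test. The 6 genes called, at an adjusted p under 0.1 in edgeR's quasi-likelihood test, compare with 10.1% of all 8503 genes tested. In the lower direction 5 of 10 were called, against 3.88% of all genes, and in the higher direction 1, against 6.21%. The 10 genes had a median log2 fold change of -1.39, against 0.09 for all genes. Fewer cells of a type in a pool and less RNA per cell cannot be told apart in libraries of 10 cells.

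Acta2 was counted at 5064, 10630, 3448, 4840 and 6754 CPM in the 5 GFP+ libraries in vivo (wells A12, B12, C12, D12 and E12). In the RFP+ libraries it was counted at 874, 568, 379 and 388 CPM (wells F12, G11, G12 and H11). The lowest GFP+ library lay far above the highest RFP+ library, and well B12 was the highest of all. RFP+ over GFP+, the log2 fold change was -3.52 ± 0.36 (standard error), with an adjusted p of 8.2e-05 in edgeR's test.

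Actg2 was uneven in vivo, at 1.09, 38.4, 125, 66.0 and 1.06 CPM in the GFP+ wells A12 to E12. The RFP+ wells F12, G11, G12 and H11 gave 5.90, 0, 16.2 and 5.04 CPM. Wells A12 and E12 rested on 1 read each, and the groups overlapped. Its log2 fold change was -2.83 ± 1.77, with an adjusted p of 0.549.

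Actb was counted at 7034, 5059, 5862, 7828 and 4873 CPM in GFP+ wells A12 to E12. In RFP+ wells F12, G11, G12 and H11 it was counted at 7156, 9469, 8276 and 13157 CPM. The groups overlapped in the lowest RFP+ and the highest GFP+ library, and well H11 was the highest. Between the groups the log2 fold change was 0.59 ± 0.18, with an adjusted p of 0.0798. This call was lost with DESeq2 (adjusted p = 0.154), with DESeq2 size factors (0.218), at a threshold of 0.05, and without any 1 of wells A12, B12, C12, E12, G11 and H11, with adjusted p from 0.108 to 0.295. Actb also shares 19.1% of its 36-base sequences, the shortest reads kept, with other genes and pseudogenes, so its level is uncertain.

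Tagln was counted at 381, 579, 294, 527 and 449 CPM in GFP+ wells A12 to E12. In RFP+ wells F12, G11, G12 and H11 it was counted at 124, 211, 115 and 143 CPM. Every GFP+ library lay above every RFP+ library, and the log2 fold change was -1.63 ± 0.33, with an adjusted p of 0.00910. Exons of Pcsk7 and of the antisense gene Gm48529 overlap Tagln on the opposite strand, which together share 61.2% of its 36-base sequences. The strand setting of the counting is not given in the sources used here, so reads of these genes cannot be told apart from those of Tagln.

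Cnn1 was counted at 153, 339, 164, 182 and 62.7 CPM in GFP+ wells A12 to E12. In RFP+ wells F12, G11, G12 and H11 it was counted at 29.5, 9.15, 9.39 and 31.7 CPM. Well E12 stood apart below the other GFP+ libraries and still above every RFP+ library. For the groups the log2 fold change was -3.21 ± 0.75, with an adjusted p of 0.0157.

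Cnn2, the calponin of wider expression, was counted at 883, 1244, 399, 682 and 945 CPM in the same order of GFP+ wells. In the RFP+ wells it was counted at 441, 425, 352 and 338 CPM. Well C12 fell within the RFP+ range, and the other 4 GFP+ libraries lay above it. The log2 fold change was -1.14 ± 0.30, with an adjusted p of 0.0300. Without well G12 or well H11 the adjusted p was 0.103 and 0.117.

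Myl9, whose phosphorylation starts contraction, was counted at 597, 2264, 519, 421 and 1250 CPM in GFP+ wells A12 to E12. In RFP+ wells F12, G11, G12 and H11 it was counted at 268, 320, 206 and 203 CPM. All GFP+ libraries lay above all RFP+ libraries, with B12 and E12 well above the other GFP+ wells. The log2 fold change was -2.07 ± 0.47, with an adjusted p of 0.0144.

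Myh9, the myosin heavy chain of non-muscle cells, was counted at 58.9 to 182 CPM in GFP+ and at 76.0 to 169 CPM in RFP+ cells in vivo. The log2 fold change was 0.16 ± 0.58, with an adjusted p of 0.973, and the RFP+ range lay inside the GFP+ range. Tpm2 was counted at 214, 123, 7.47, 135 and 318 CPM in GFP+ wells A12 to E12 and at 101 to 130 CPM in RFP+ wells. Well C12, with 6 reads, was far below every other in vivo library, and the log2 fold change was -0.48 ± 0.73 with an adjusted p of 0.899. Tpm4 was counted at 822 to 1388 CPM in GFP+ and 833 to 955 CPM in RFP+ cells, with a log2 fold change of -0.36 ± 0.20 and an adjusted p of 0.485. For these genes no difference was detectable at this spread between wells.

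In vivo, 4 of the 10 genes (Acta2, Tagln, Cnn1 and Myl9) had every GFP+ library above every RFP+ library, against 3.56% of all genes tested, and none had the reverse, against 13.9%. Markers of other cell types moved with this comparison. Of 12 cardiomyocyte genes, 11 were lower in RFP+ cells, against 3.88% of all genes. Their list had a median log2 fold change of -4.12, against 0.09 for all genes. Their summed level ran from 19111 to 57960 CPM in GFP+ and from 1303 to 2467 CPM in RFP+ libraries, and no defining gene of the list was at 0 throughout either group. The exception to the call was Myl2, with a log2 fold change of -4.29 ± 1.69 and an adjusted p of 0.191. Myh6, at 5.16 CPM in RFP+ against 751 CPM in GFP+ cells, could pass the filter through its GFP+ counts, which limits what its direction can show. Well B12, highest in Acta2, Tagln, Cnn1, Cnn2, Myl9 and Myh9 among the GFP+ libraries, also had the highest cardiomyocyte sum. Endoderm genes summed to 10.1 to 649 CPM in RFP+ and 0 to 21.4 CPM in GFP+ cells, with 7 of the 8 at 0 in all GFP+ libraries. In RFP+ cells that sum was mostly Cldn6 (mean 257 CPM) and Epcam (64.8 CPM), which are also expressed in other epithelia, while Sox17 averaged 3.17 and Foxa2 0.361 CPM and Afp was at 0. Endothelial genes summed to 61.5 to 274 CPM in RFP+ and 0 to 92.2 CPM in GFP+ cells. Of the 8, 5 were at 0 in the GFP+ libraries, Pecam1, Cdh5 and Emcn among them. Pecam1 and Cdh5 averaged only 4.64 and 7.88 CPM in RFP+ cells, overlapped between the groups and were under the filter. Of 3 tested only Emcn was called, higher in RFP+ cells, and it passed the filter through its RFP+ counts alone. Kdr was not called (3.07 ± 1.83 on the log2 scale). Tek, the highest of the list in GFP+ cells, went the other way and was not called (-1.09 ± 1.92). The part of these cell types in the differences was not tested.

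**Figure D2:**
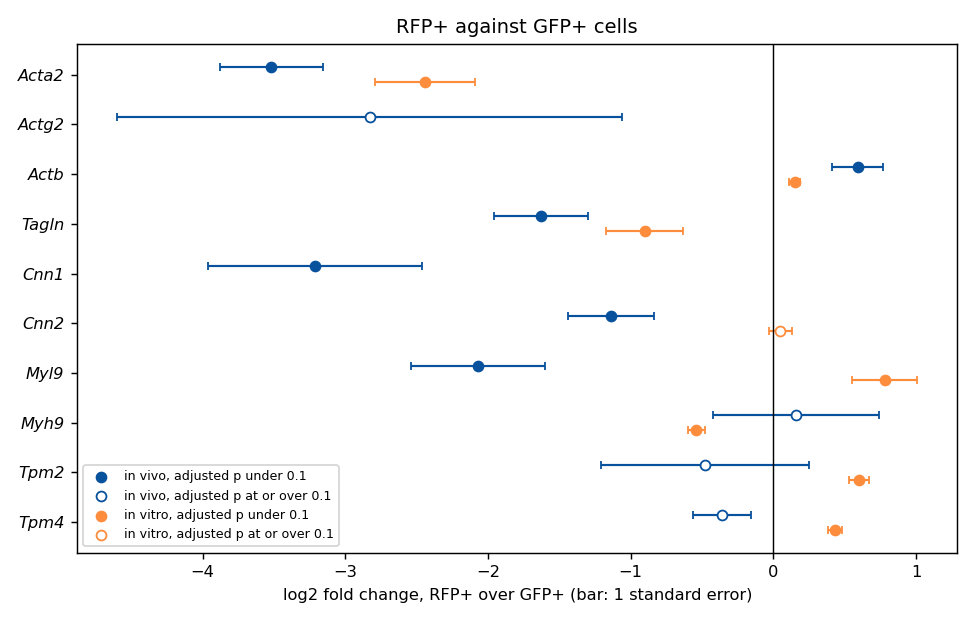
Log2 fold change of RFP+ over GFP+ cells for each gene in vivo (blue, 4 against 5 libraries) and in vitro (orange, 46 against 38 libraries), with bars of 1 standard error. Filled points had an adjusted p under 0.1 in edgeR's test, and Actg2 and Cnn1 have no in vitro point because their counts were under the filter. Myl9 lies at -2.07 in vivo and 0.78 in vitro.

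The second comparison put the same question to the spheroid cells. In vitro, Acta2, Tagln and Myh9 were lower in RFP+ cells, and Actb, Myl9, Tpm2 and Tpm4 were higher. Of the 10 genes 8 passed the filter on low counts and 7 were called, against 77.9% of all 9940 genes tested, so the share called was near that of all genes. Higher calls made up 4 of the 8, against 37.8% of all genes, and lower calls 3, against 40.1%. Among the 8 genes only Acta2 differed by more than 2-fold. They had a median log2 fold change of 0.10, against -0.02 for all genes.

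Acta2 ran from 0 to 351 CPM in the 38 GFP+ libraries (median 23.7) and from 0 to 38.2 CPM in the 46 RFP+ libraries (median 7.85). The ranges overlapped, with a tail of GFP+ wells above every RFP+ well, and the log2 fold change was -2.44 ± 0.35 with an adjusted p of 1.1e-09. Tagln ran from 0 to 51.5 CPM in GFP+ (median 10.4) and from 0 to 27.4 CPM in RFP+ libraries (median 6.42), with a log2 fold change of -0.90 ± 0.27 and an adjusted p of 0.00166. Both genes were close to the limit of detection in some wells, with Acta2 at 0 in 4 GFP+ and 3 RFP+ libraries. The shallow well C9 was among the 4.

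Myl9 moved the other way in vitro. It ran from 0 to 39.9 CPM in GFP+ (median 7.96) and from 3.71 to 39.7 CPM in RFP+ libraries (median 19.1). Myl9 too was close to the limit of detection in some wells, at 0 in 4 GFP+ libraries, with well C9 among them. The ranges overlapped almost fully, yet RFP+ wells were higher on average, with a log2 fold change of 0.78 ± 0.23 and an adjusted p of 0.00150. The test of the difference between the in vivo and the in vitro change gave -2.85 ± 0.52 on the log2 scale, with an adjusted p of 0.0408 over the 8182 genes tested in both.

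Actg2 and Cnn1 were under the filter in vitro. Cnn1 was counted in 34 of 38 GFP+ libraries (median 6.28, highest 32.3 CPM) and in 22 of 46 RFP+ libraries (median 0, highest 12.3 CPM). A permutation test of the mean log2 CPM gave a difference of -1.60, RFP+ minus GFP+, with an unadjusted p of 1.0e-05, the smallest that 100000 resamples can give. Actg2 was counted in 19 GFP+ and 10 RFP+ libraries, at up to 15.8 and 7.42 CPM, with a difference of -0.70 and an unadjusted permutation p of 0.00143. Without the filter on low counts both genes were also called in edgeR's test.

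Among the cytoskeletal genes of wide expression, differences in vitro were small and the ranges overlapped throughout. Actb ran from 3032 to 9207 CPM in GFP+ (median 6765) and from 6364 to 9489 CPM in RFP+ libraries (median 7922), with a log2 fold change of 0.15 ± 0.04. The 3032 CPM was that of the shallow well C9, on 41 reads, and the lowest GFP+ library over 100000 counts was at 5230 CPM. Cnn2 had medians of 127 and 133 CPM and was not called, with a log2 fold change of 0.05 ± 0.08 and an adjusted p of 0.546. Myh9 was lower in RFP+ cells, at medians of 112 against 164 CPM and a log2 fold change of -0.54 ± 0.06.

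The tropomyosins were both higher in RFP+ cells in vitro. Tpm2 had medians of 75.5 CPM in RFP+ and 48.6 CPM in GFP+ libraries, with a log2 fold change of 0.60 ± 0.07 and an adjusted p of 6.9e-13. Tpm4 had medians of 751 and 545 CPM, with a log2 fold change of 0.43 ± 0.05 and an adjusted p of 4.4e-14. No gene of the set separated the in vitro populations without overlap, as 1.32% of all genes did with RFP+ above GFP+ and 0.744% with RFP+ below. The shallow GFP+ well C9 was at 0 for Acta2, Actg2, Tagln, Cnn1, Cnn2, Myl9 and Myh9. RFP+ wholly below GFP+ was therefore impossible for these genes, and the separation was not computed without that well.

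For the other 7 genes tested in both sources, the difference between the in vivo and the in vitro change did not pass the test. It was -1.19 ± 0.31 for Cnn2, with an adjusted p of 0.107, and -0.78 ± 0.21 for Tpm4, with an adjusted p of 0.123. For Acta2 it was -1.08 ± 0.50, with an adjusted p of 0.470. The 1 call among 8 genes, in the lower direction, compares with 5.26% of all genes called, 2.10% in the lower and 3.15% in the higher direction. In a single edgeR fit over the 4 groups, which pools their spread, 6 of the 8 were called (Actb, Cnn2, Myl9, Myh9, Tpm2 and Tpm4). Cnn2 also passed without well C12 (adjusted p = 0.0297) or D12 (0.0820), and Tpm4 without well B12 (0.0509) or E12 (0.0817).

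The remaining comparisons set embryo cells beside spheroid cells of the same reporter. They share their libraries with the comparisons above, and in them the source cannot be told apart from the stage or the plate column. In GFP+ cells, Acta2, Actg2, Tagln, Cnn1, Cnn2, Myl9, Tpm2 and Tpm4 were higher in vivo and Actb and Myh9 lower. All 10 genes were called, against 68.0% of all 11822 genes tested. Of the 10, 8 were called higher, against 19.7% of all genes, and 2 lower, against 48.3%. The 10 genes had a median log2 fold change of 3.28, against -0.67 for all genes, so changes are also read against that shift. With DESeq2 size factors the median of all genes was -0.22, and 42.6% of all calls were higher in vivo against 28.9% with TMM.

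Acta2 and Myl9 had the largest changes of the set in GFP+ cells. The lowest Acta2 level in vivo was 3448 CPM and the highest in vitro 351 CPM, and the log2 fold change, in vivo over in vitro, was 6.63 ± 0.56 (99.2-fold, adjusted p = 1.3e-14). The lowest Myl9 level in vivo was 421 CPM and the highest in vitro 39.9 CPM, with a log2 fold change of 6.42 ± 0.39 (85.9-fold, adjusted p = 9.1e-20). Neither gene overlapped between the sources. Tagln, Cnn1, Cnn2 and Tpm4 did not overlap either, with log2 fold changes of 4.87 ± 0.42, 4.33 ± 0.44, 2.58 ± 0.18 and 0.89 ± 0.12. These 6 of 10 genes without overlap compare with 2.75% of all genes tested, and none of the 10 lay wholly below, as 3.35% of all genes did. The filter kept genes by the size of the smaller group. Actg2 and Cnn1, under the filter among in vitro libraries alone, could therefore pass through their in vivo counts. Both are counted among the 10 called and in the median of 3.28, and Cnn1 among the 6 without overlap. This limits what the share called higher can show.

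Actg2 rose by 3.99 ± 0.74 on the log2 scale in GFP+ cells in vivo, and its ranges overlapped because of wells A12 and E12. Tpm2 was higher by 1.48 ± 0.26 on that scale, with well C12 below every in vitro library. Myh9 was lower in vivo, at a log2 fold change of -0.78 ± 0.19, which is close to the median of all genes. Actb was lower by TMM, at -0.34 ± 0.11, and higher than the median of all genes, and it turned to 0.12 with DESeq2 size factors, where it was not called (adjusted p = 0.191).

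Markers of other cell types moved with this comparison in GFP+ cells. All 11 cardiomyocyte genes tested were higher in vivo, against 19.7% of all genes, with a median log2 fold change of 6.76. The summed level of the list was 19111 to 57960 CPM in vivo and 0 to 1431 CPM in vitro. Tnnt2, Tnnc1, Myl4, Myl3, Myh6 and Myh7 were under the filter among in vitro libraries alone. They could pass through their in vivo counts, which limits what the share called higher can show. Of the 8 pluripotency genes 7 were lower in vivo, against 48.3% of all genes, and 1 was higher. The median of the list was -8.35, and 6 of the 8, Pou5f1 among them, were at 0 in all GFP+ libraries in vivo. All 3 endoderm genes tested (Foxa2, Cldn6 and Epcam) were lower, with a median of -10.82. These 3 were also at 0 in all GFP+ libraries in vivo. Like the 6 pluripotency genes at 0, they passed the filter through their in vitro counts alone, so their direction was fixed by the filter. The part of these cell types in the differences was not tested.

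In RFP+ cells 9 of the 10 genes passed the filter and 8 were higher in vivo, against 42.6% of all 11147 genes called and 20.1% called higher. The 9 genes had a median log2 fold change of 1.55, against -0.04 for all genes. Cnn1, at 0 in 24 RFP+ libraries in vitro, was under the filter among in vitro libraries alone and could pass through its in vivo counts. It is counted among the 8 and in that median, which limits what the share called higher can show. Myh9 was not called, at 0.08 ± 0.14 with an adjusted p of 0.719, and Actg2 was under the filter, at 0 to 16.2 CPM in vivo and 0 to 7.42 CPM in vitro.

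The order of the genes by size was led by Acta2 in RFP+ cells too, with 379 to 874 CPM in vivo against 0 to 38.2 CPM in vitro. Its log2 fold change was 5.74 ± 0.30 (53.4-fold, adjusted p = 1.3e-24). Tagln followed at 4.32 ± 0.30, Myl9 at 3.75 ± 0.22 and Cnn1 at 3.62 ± 0.68, and Myl9 and Cnn1 differed by less than the standard error of Cnn1. Acta2, Tagln, Cnn2 and Myl9 did not overlap between the sources, against 2.48% of all genes higher in vivo without overlap and 2.06% lower. Tpm2, Tpm4 and Actb rose by 0.58 ± 0.13, 0.29 ± 0.09 and 0.28 ± 0.07 on the log2 scale. The call on Actb was lost without well H11 (0.08, adjusted p = 0.434).

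In RFP+ cells too, all 11 cardiomyocyte genes tested were higher in vivo, against 20.1% of all genes, with a median log2 fold change of 4.84. The list summed to 1303 to 2467 CPM in vivo and 16.0 to 151 CPM in vitro. Tnnt2, Tnnc1, Myl4, Myl2, Myl3 and Myh7 were under the filter among in vitro libraries alone and could pass through their in vivo counts. Of 5 endothelial genes tested 4 were higher (median 2.54), with sums of 61.5 to 274 CPM in vivo and 2.19 to 143 CPM in vitro. Among these, Cdh5, Emcn and Esam had the same limit. Of 6 pluripotency genes tested 4 were lower, against 22.5% of all genes (median -5.19), with sums of 0 to 79.0 CPM in vivo and 6.27 to 596 CPM in vitro. Among the 4, Pou5f1, Zfp42 and Utf1 were at 0 in all RFP+ libraries in vivo. They passed the filter through their in vitro counts alone, so their direction was fixed by the filter. The part of these cell types in the differences was not tested either.

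**Figure D3:**
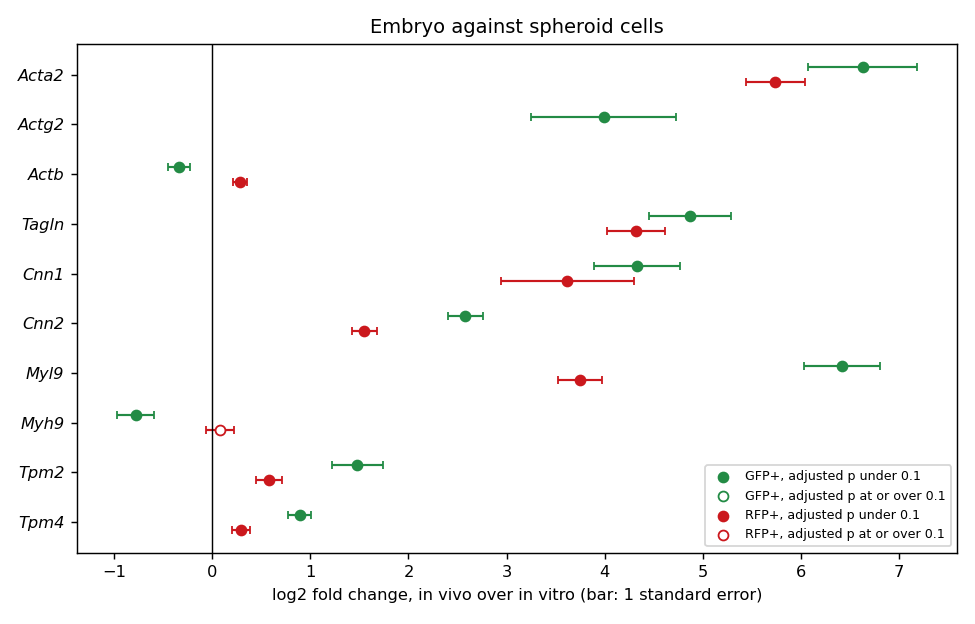
Log2 fold change of in vivo over in vitro cells for each gene in GFP+ (green, 5 against 38 libraries) and RFP+ (red, 4 against 46 libraries) cells, with bars of 1 standard error. Filled points had an adjusted p under 0.1 in edgeR's test, and Actg2 has no point in RFP+ cells. The smooth muscle genes Acta2, Tagln, Cnn1 and Myl9 lie between 3.62 and 6.63, while Actb and Myh9 lie between -0.78 and 0.28.

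Over the 4 groups, Acta2 ordered as GFP+ in vivo (6147 ± 2767 CPM, SD), RFP+ in vivo (552 ± 231), GFP+ in vitro (53.7 ± 75.7) and RFP+ in vitro (10.6 ± 9.06). All neighbours but the in vitro pair were free of overlap. Tagln took the same order, at 446 ± 114, 148 ± 43.1, 13.3 ± 12.0 and 7.64 ± 5.72 CPM. Myl9 ordered as GFP+ in vivo (1010 ± 773 CPM), RFP+ in vivo (249 ± 55.7), RFP+ in vitro (18.6 ± 8.93) and GFP+ in vitro (10.1 ± 9.85). Cnn2 ordered as GFP+ in vivo (831 ± 314), RFP+ in vivo (389 ± 51.8), RFP+ in vitro (133 ± 27.2) and GFP+ in vitro (121 ± 41.3), and its in vitro groups did not differ beyond their spread.

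The order of Actb was another one, with RFP+ in vivo highest (9515 ± 2606 CPM), then RFP+ in vitro (7904 ± 668), GFP+ in vitro (6872 ± 1034) and GFP+ in vivo (6131 ± 1275). Myh9 was highest in GFP+ cells in vitro (160 ± 37.9 CPM), with RFP+ in vivo at 121 ± 37.8, RFP+ in vitro at 117 ± 23.1 and GFP+ in vivo at 105 ± 51.4 CPM. The last 3 groups lay within each other's SD.

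In the in vitro GFP+ libraries, Acta2 varied with the cardiomyocyte genes. Across the 38 libraries its log2 CPM correlated with that of the summed cardiomyocyte genes at r = 0.66 (Spearman's coefficient 0.72), and at r = 0.63 without the 2 libraries farthest from the median. The 4 wells with the most Acta2 (G10, E8, B9 and B11, with 351, 264, 182 and 143 CPM) had cardiomyocyte sums of 1379, 1213, 1431 and 1302 CPM, against a median of 137 CPM in the group. Tagln and Myl9 each correlated at r = 0.50 with that sum, and at 0.41 and 0.36 without the 2 farthest libraries. Cnn2 (0.62), Myh9 (0.59), Tpm4 (0.56) and Actb (0.52) had higher values, which came to 0.13, -0.08, 0.12 and 0.11 without those libraries. In the 46 RFP+ libraries, whose cardiomyocyte sums stayed between 16.0 and 151 CPM, r was 0.23 for Acta2, -0.32 for Tagln and -0.04 for Myl9. These values are descriptions over libraries that also share depth and plate position.

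**Figure D4:**
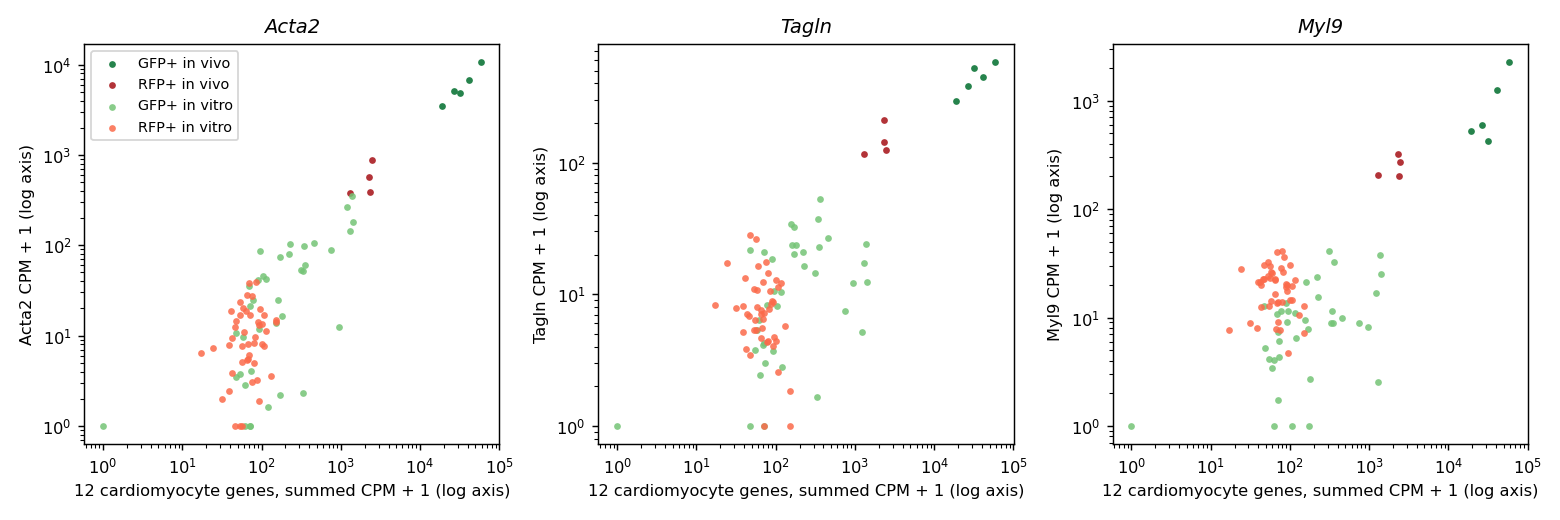
CPM + 1 of Acta2, Tagln and Myl9 against the summed CPM + 1 of 12 cardiomyocyte genes, both on log axes, 1 point per library in the 4 groups. GFP+ in vivo libraries sit at the upper right with sums of 19111 to 57960 CPM. In the Acta2 panel, the in vitro GFP+ libraries with the most Acta2 come closest to the RFP+ in vivo libraries.

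Within the set, the strongest rank correlation among in vitro GFP+ libraries was that of Acta2 and Myl9, at 0.63 (n = 38). The same pair stood at 0.21 among the RFP+ libraries (n = 46). Acta2 and Tagln stood at 0.49 and 0.06, and Tagln and Myl9 at 0.42 and 0.46. In RFP+ libraries the strongest pair was Actb and Tpm2, at 0.57, which stood at -0.11 in GFP+ libraries.

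Genes outside the set were ranked by the smaller of their rank correlations with a member in the in vitro GFP+ and RFP+ libraries, over 7926 genes. The most like Actb were Smdt1 (0.53), Pfn1 (0.53), which encodes the actin monomer-binding protein profilin, and Ddah2 (0.46). The most like Acta2 were Eme1, Dtwd2 and Ptrhd1, at 0.40 to 0.41. The most like Tagln were Tomm40l, Cct3 and Vopp1, at 0.34 to 0.36, and the most like Cnn2 were Kdsr, Ralb and Ralgapa1, at 0.35 to 0.38. These are maxima over many genes in sparse counts and are weak.

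Other genes of the contractile apparatus were taken from lists. Of 13 further smooth muscle genes, 10 were tested in vivo, where 4 were lower and 1 was higher in RFP+ cells, against 10.1% of all genes called, and the median of the list was -1.92 on the log2 scale. Csrp2, a LIM protein of smooth muscle, was lower (-2.37 ± 0.28 on the log2 scale, 668 CPM in GFP+ and 133 CPM in RFP+ cells). Kcnmb1 (-4.21 ± 1.29), a subunit of the large calcium-activated potassium channel of smooth muscle, was lower too. So was Lmod1, named after its values were seen (-3.99 ± 1.24, adjusted p = 0.0757), an actin nucleator of smooth muscle. The integrin gene Itga8 was higher, at 34.3 CPM in RFP+ against 0.0929 CPM in GFP+ cells. Itga8 passed the filter through its RFP+ counts alone, so its direction was fixed by the filter. Kcnmb1 and Lmod1, low in RFP+ cells, could pass through their GFP+ counts. Itga8, Kcnmb1 and Lmod1 are counted among the calls of the list and in its median, which limits what these can show. Myh11, the heavy chain of smooth muscle myosin and a marker of mature smooth muscle, was counted in 1 of 5 GFP+ and 1 of 4 RFP+ libraries and was under the filter.

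In vitro, 7 of the 13 smooth muscle genes were tested and all 7 were called, against 77.9% of all genes, 3 higher and 4 lower in RFP+ cells, with a median of -0.20. Csrp1 was the one with the smallest adjusted p, lower at -1.91 ± 0.15 on the log2 scale, and Cald1 (caldesmon, -0.44 ± 0.05) and Pdlim7 (-0.20 ± 0.07) were lower by less. Csrp2 (0.38 ± 0.09) and Itga8 (0.98 ± 0.27) were among those higher.

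Among 11 paralogs of the members, 10 were tested in vivo. Tpm1, the tropomyosin of heart and smooth muscle, was lower in RFP+ cells (-3.08 ± 0.26 on the log2 scale, 856 against 6998 CPM, adjusted p = 2.1e-05). Actg1, the other cytoplasmic actin, was higher by 0.87 ± 0.22. These 2 of 10 calls compare with 10.1% of all genes, and the median of the list was -0.07. In vitro 9 of 10 were called, against 77.9% of all genes, 5 higher and 4 lower, with Tpm3 higher by 0.83 ± 0.05 and Tagln2, a transgelin outside smooth muscle, lower in RFP+ cells at -1.66 ± 0.08. In vitro, Actg1 was lower in RFP+ cells (-0.40 ± 0.04), as was Tpm1 (-0.64 ± 0.06), and Tagln3 (1.24 ± 0.23) and Myl12b (0.20 ± 0.04) were higher.

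Of 12 genes that turn actin filaments over, 11 were tested in vivo and 4 were called, against 10.1% of all genes. There Pfn1 (1.06 ± 0.21), Tmsb10 (1.14 ± 0.28) and Cfl1 (0.79 ± 0.22), which encode profilin, a thymosin and cofilin, were higher in RFP+ cells, while Wdr1 was lower (-1.22 ± 0.38). In vitro the same 4 genes had log2 fold changes of 0.63 ± 0.04, 1.15 ± 0.05, 0.76 ± 0.04 and -0.39 ± 0.06, all called. Gsn, which encodes the filament-severing protein gelsolin, was lower in RFP+ cells in vitro, at 29.9 against 178 CPM and a log2 fold change of -2.65 ± 0.13, and Capzb was lower at -0.54 ± 0.04. In all 5 were higher and 4 lower in vitro, 9 of 12 against 77.9% of all genes, and the list's median was 0.32 in vivo and -0.02 in vitro.

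Of 14 genes of actin cross-linking and adhesion, 13 were tested in vivo and 2 were called, against 10.1% of all genes. Pdlim5 (-3.98 ± 0.54) and Vcl (vinculin, -1.80 ± 0.36) were lower in RFP+ cells, and the median of the list was 0.07. In vitro 11 of 13 were called, against 77.9% of all genes, of which 3 were higher (Flnc, Actn1 and Lima1, at 0.25 to 0.57) and 8 lower, with Pdlim1 (-0.75 ± 0.11) and Actn4 (-0.50 ± 0.08) among them, and a median of -0.24.

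Of 14 genes of myosin activation and SRF regulation, 13 were tested in vivo and 3 were called, all lower in RFP+ cells, against 10.1% of all genes, with a median of -0.93. Myocd, the SRF cofactor myocardin, was counted at 759 to 953 CPM in GFP+ and at 43.2 to 87.8 CPM in RFP+ cells, with a log2 fold change of -3.91 ± 0.30 and an adjusted p of 1.2e-05. Mylk3, the myosin light chain kinase of cardiac muscle, and Rhoa, a small GTPase that promotes contraction, were lower too, at -2.42 ± 0.53 and -1.16 ± 0.34 on the log2 scale. Srf itself ran from 5.68 to 118 CPM in GFP+ and from 21.4 to 55.5 CPM in RFP+ cells and was not called, at -0.17 ± 1.19.

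In vitro, 2 of 12 tested genes of that list were higher in RFP+ cells and 7 lower, against 77.9% of all genes called, with a median of -0.35. Myocd ran from 0 to 66.9 CPM in GFP+ (median 1.04) and from 0 to 26.6 CPM in RFP+ libraries (median 8.79), and it was called higher at 0.70 ± 0.35 with an adjusted p of 0.0622. Ppp1cb, a catalytic subunit of the myosin phosphatase, was higher at 0.43 ± 0.05, and its targeting subunit Ppp1r12a was lower at -0.66 ± 0.06. The SRF target Cyr61 (-1.85 ± 0.19) and the kinase Rock2 (-0.74 ± 0.08) were lower too.

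Beside the in vitro comparison, cardiomyocyte genes summed to 0 to 1431 CPM in GFP+ and 16.0 to 151 CPM in RFP+ libraries. Of 5 tested 4 were lower in RFP+ cells, against 40.1% of all genes (median log2 fold change -1.94), and Actc1 was not called. Among the 4, Acta1 (83.6 CPM in GFP+ and 2.84 CPM in RFP+ cells) and Ttn (52.1 and 5.50 CPM) could pass the filter through their GFP+ counts. This limits what the share called lower can show. Endothelial genes summed to 0 to 54.9 and 2.19 to 143 CPM, and Kdr, the 1 tested, was higher in RFP+ cells (3.58 ± 0.34 on the log2 scale). With means of 16.3 CPM in RFP+ and 1.18 CPM in GFP+ cells, Kdr passed the filter largely through its RFP+ counts. This limits what its direction can show. The rest of the list was under the filter, with higher means in GFP+ cells for Pecam1, Tek and Plvap. Cdh5, Tie1, Emcn and Esam had higher means in RFP+ cells. Pluripotency genes summed to 79.3 to 1683 CPM in GFP+ and 6.27 to 596 CPM in RFP+ libraries, and endoderm genes to 175 to 517 and 18.1 to 181 CPM. None of the 8 genes of the pluripotency or the endoderm list was at 0 throughout a group. Cldn6 (160 CPM in GFP+ and 58.2 CPM in RFP+ cells) and Epcam (122 and 28.2 CPM) made up most of the endoderm sum. Foxa2, an endoderm transcription factor, was higher in RFP+ cells in edgeR's test (9.08 against 2.28 CPM, log2 fold change 1.88 ± 0.37, adjusted p = 3.9e-06). It could pass the filter through its RFP+ counts, which limits what its direction can show. Blood genes summed to at most 15.8 CPM in vitro and, in vivo, to at most 1172 CPM, reached in an RFP+ library. Neural genes stayed between 0 and 72.3 CPM over all libraries, and fibroblast and mesothelium genes between 16.4 and 739 CPM. The part of these cells in the differences was not tested.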

How the data were processed

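The authors trimmed reads (minimum quality 35, minimum length 36), mapped them and counted them per gene. The submitters' processing notes name Trimmomatic 0.36, HISAT2 2.0.4, featureCounts 1.5.2 of Subread, and the build mm10. The annotation and strand setting of the counting are not given in the sources used here. The deposited table holds whole read counts without normalization. The members and the gene lists were chosen with earlier results of these data known.

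Groups came from the sample labels, and all 93 libraries were used. Tests ran in edgeR 4.0.16 under R 4.3.3 (TMM, filterByExpr with a minimum count of 10, quasi-likelihood F-test), each comparison on its own 2 groups, with Benjamini-Hochberg adjustment over all genes tested and a threshold of 0.1. Standard errors were derived from the F statistic. To compare the in vivo with the in vitro change, the 2 log2 fold changes were subtracted and divided by the root of their summed squared standard errors, with 7 degrees of freedom. Genes under the filter were tested by two-sided permutation of log2 CPM (prior count 2). Named genes were all members, up to 3 genes per direction from each pathway list by adjusted p, and 3 most like genes per member for 4 members. Some genes of the lists are not reported here. Library totals limit the precision, and reads carry no molecular identifiers. The tests were checked on simulated counts. Alternatives used DESeq2 1.42.0, other size factors, no filter, a stricter threshold, a robust fit, plate row as a covariate, well pairs summed, libraries over 100000 counts and leaving out each in vivo library.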

Additional observations from a re-analysis of the deposited data

Results flagged for a closer look

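The RFP+ over GFP+ change of Myl9 differed between the sources, by -2.85 on the log2 scale (in vivo minus in vitro, standard error 0.52, adjusted p = 0.0408 with separate edgeR fits). All 5 GFP+ libraries lay above all 4 RFP+ libraries in vivo, while the in vitro ranges overlapped. Levels in vitro were low, at means of 10.1 CPM in GFP+ and 18.6 CPM in RFP+ libraries. Leaving out each in vivo library gave values from -3.06 to -2.31, all past the threshold.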

How the results depend on the processing

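Among values for single genes under an alternative, 558 kept their direction and their side of the threshold, 12 lost a call, 9 gained one and 4 reversed. The reversals were Actb in vivo against in vitro in GFP+ cells, at 0.12 with DESeq2 and at 0.12 with DESeq2 size factors in edgeR, and Myh9 in the comparisons in which it was not called, where its leave-one-out values ran from -0.02 to 0.47 between populations in vivo and from -0.13 to 0.25 between sources in RFP+ cells, below 0 without well H11 in both. The cause was not tested. The count of genes whose change differed between the sources was 1, rose to 6 in a joint edgeR fit, and ran from 1 to 2 with an in vivo library left out. The counts of called genes ran from 4 to 6 in vivo, from 7 to 9 in vitro, from 9 to 10 between sources in GFP+ cells and from 7 to 9 in RFP+ cells. Actg2 also depended on single libraries, with a change between sources in GFP+ cells of 3.25 without well C12, and an uncalled change between populations in vivo of -3.69 without well G12. No paired analysis was possible because the labels give wells and no replicate numbers shared between groups. In vivo groups of 5 and 4 pools of 10 cells limit what could be detected, and low counts in vitro limit Actg2 and Cnn1.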
